A study of Mus musculus with 28 samples.

Results

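A set of 8 genes of skeletal mineralization, out of the 55341 gene rows in the count matrices, was followed across bulk RNAseq of 28 subcutaneous tumors. The genes were *Runx2*, *Sp7*, *Alpl*, *Ibsp*, *Col10a1*, *Dmp1*, *Phex* and *Fgf23*, matched by symbol. The members were chosen by their log2 CPM across the 6 groups and their correlations within groups, with these values known, so their levels, fold changes and correlations are descriptions without a test. Tests are given for 93 other genes in 5 lists of related function.

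The tumors grew from AB1-HA, a mouse mesothelioma cell line that carries an influenza hemagglutinin gene, under the skin of female BALB/c.AusBP mice aged 8 to 10 weeks. Each was taken whole 7 days after treatment began, so its RNA mixes the tumor cells with those of the host. Mice were inoculated on 1 flank, and the p-values measure the spread between these tumors. The 4 PBS mice received vehicle. The 5 ICB mice received 100 µg of anti-CTLA-4 together with 100 µg of anti-PD-L1, and then 2 additional 100 µg doses of anti-PD-L1. The 5-FU group (n = 5) received 75 mg/kg of 5-fluorouracil, which blocks thymidylate synthesis, and the cisplatin group (n = 4) received 6 mg/kg of the DNA-crosslinking drug cisplatin. The 5-FU+ICB and cisplatin+ICB groups (n = 5 each) received both treatments at the same doses. Total counts lay between 23541733 and 33950805 per tumor. Levels are given as CPM, the count relative to the library total after scaling by TMM, and 3 counts were between 0.0884 and 0.127 CPM before that scaling, a floor that covers counting error only.

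In bone and in growth plate cartilage, mineral forms where the local phosphate is high and inhibitors of crystal growth are removed. Runx2 and Sp7 (osterix) are the transcription factors that bone-forming osteoblasts need. Alpl, the tissue-nonspecific alkaline phosphatase, splits the inhibitor pyrophosphate, while Ibsp (bone sialoprotein) and Dmp1 are acidic matrix proteins that bind mineral. Col10a1 is the collagen of hypertrophic chondrocytes, the cartilage cells that precede bone. Phex is a membrane endopeptidase of osteoblasts and osteocytes, and Fgf23 is the osteocyte hormone that lowers blood phosphate. Loss of Phex or Dmp1 is known to raise Fgf23 in bone.

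Several genes that define bone and cartilage cells were at or near 0 in the tumors. *Ibsp* had 7 counts over all 28 tumors, with no more than 2 in any of them, and *Sp7* had 9 counts, 4 of which were in 5-FU tumor 3. No tumor had more than 3 counts of the osteoblast hormone *Bglap*, of *Bglap2*, of the osteocyte genes *Sost* and *Mepe*, of the dentin gene *Dspp*, or of the cartilage proteoglycan *Acan*. The cartilage collagen *Col2a1* averaged between 0.0197 CPM in the ICB group and 0.0830 CPM in the PBS group. Other bone and cartilage genes were detected, among them *Omd* (at most 43.1 CPM), *Comp* (2.03 CPM), *Col9a3* (1.40 CPM), *Ifitm5* (1.01 CPM) and *Bglap3* (0.657 CPM). The set is therefore described by its member genes and not as a sign of bone or cartilage cells, whose presence was not tested. The mesothelial genes *Upk3b*, at most 2 counts, and *Lrrn4* were also at or near 0, whereas mesothelin (*Msln*) reached 311 ± 38.7 CPM in the PBS tumors (SD, n = 4).

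The other 6 members passed the filter on low counts in both matrices. Averaged over the tumors, *Runx2* had 4.91 CPM per kilobase, *Fgf23* 2.12, *Col10a1* 1.74, *Dmp1* 1.45, *Phex* 0.578 and *Alpl* 0.408. Without 5-FU+ICB tumor 5, *Fgf23* had 1.38 CPM per kilobase, below *Col10a1* (1.80) and *Dmp1* (1.48), and *Alpl* 0.178. These lengths are those of all annotated exons merged, which need not be the transcripts present. In a bulk tumor, fewer cells of a type and less RNA per cell cannot be told apart.

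Promoter sequences are shown for *Col10a1* and *Dmp1*, which lay lower in ICB tumors, and for *Fgf23*, which lay higher in 5-FU tumors. They are RefSeq sequences of the GRCm38.p6 build, the 250 bases before the annotated start, printed 5′ to 3′ with motif matches in capitals. The motifs searched were the RUNX core TGTGGT, the AP-1 site TGANTCA and the E-box CACGTG on both strands, and the TATA box TATAAA on the coding strand, none of which contains another.
*Col10a1* chr10:34389731-34389980, plus strand: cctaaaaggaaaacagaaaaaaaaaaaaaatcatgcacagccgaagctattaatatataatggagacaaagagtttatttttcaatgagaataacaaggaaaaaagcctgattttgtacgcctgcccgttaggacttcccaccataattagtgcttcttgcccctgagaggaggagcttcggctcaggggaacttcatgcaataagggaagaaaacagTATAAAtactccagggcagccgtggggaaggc
*Dmp1* chr5:104202367-104202616, plus strand: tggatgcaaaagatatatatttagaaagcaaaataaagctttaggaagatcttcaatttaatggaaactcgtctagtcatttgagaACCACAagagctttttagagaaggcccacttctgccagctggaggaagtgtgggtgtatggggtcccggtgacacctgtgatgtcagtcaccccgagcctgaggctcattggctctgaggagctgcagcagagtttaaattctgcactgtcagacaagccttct
*Fgf23* chr6:127072652-127072901, plus strand: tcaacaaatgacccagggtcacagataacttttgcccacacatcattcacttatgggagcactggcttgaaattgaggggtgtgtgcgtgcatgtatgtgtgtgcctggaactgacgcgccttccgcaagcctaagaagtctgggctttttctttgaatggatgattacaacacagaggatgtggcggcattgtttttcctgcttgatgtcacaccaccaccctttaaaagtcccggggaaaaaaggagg

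The *Col10a1* window holds a TATA box starting at -32, and the *Dmp1* window a RUNX core at -164, capitalised as its reverse complement. The *Fgf23* window holds none of the 4 motifs. Windows were found for 7 of the 8 members, 9 in all, and *Sp7* had none in the table. Of the other windows, the other *Dmp1* window held E-boxes at -249 and -44 and the *Runx2* window a RUNX core at -80, while those of *Alpl*, *Phex* and *Ibsp* held no match. Among all 32851 windows of this length, 14% held the RUNX core, 6.75% the AP-1 site, 6.02% the E-box and 7.59% the TATA box. A match or its absence describes these letters only.

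*Runx2* (chr17:44495987-44814797, minus strand, protein-coding) was the most even member across treatments, apart from a few low tumors. In PBS tumors it was 21.9, 13.8, 56.2 and 42.9 CPM, and in cisplatin tumors 47.9, 32.4, 47.8 and 20.5 CPM. It was 43.9, 45.4, 45.7, 56.8 and 48.2 CPM in ICB tumors, 50.2, 53.8, 33.9, 49.5 and 44.4 CPM in 5-FU tumors, and 47.4, 57.6, 46.5, 47.4 and 39.4 CPM in 5-FU+ICB tumors. The cisplatin+ICB tumors had 6.52, 57.1, 49.5, 52.1 and 57.2 CPM. All groups overlapped, and what set them apart was spread: the SD of log2 CPM was 0.15 in ICB tumors, 0.92 in PBS tumors and 1.36 in cisplatin+ICB tumors, the last because of tumor 1. Fitted log2 fold changes did not exceed 0.57 ± 0.26 (SE), reached in ICB against PBS. Of its exon bases, 519 are shared with the antisense gene *Runx2os1*. The strandedness of the libraries is not given in the sources used here, so reads of both genes cannot be told apart there.

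*Alpl* (chr4:137741733-137796384, minus strand) lay near the limit of detection in untreated tumors and highest where 5-FU was given. It was 0.122, 0.373, 0.614 and 0.365 CPM in PBS tumors, 0.409, 0.428, 0.908, 0.183 and 0.378 CPM in ICB tumors, and 0.685, 0.611, 1.38, 1.19 and 1.79 CPM in 5-FU tumors. It was 0.656, 0.457, 0.436 and 0.326 CPM in cisplatin tumors, 0.318, 0.319, 0.737, 0.619 and 0.960 CPM in cisplatin+ICB tumors, and 1.53, 1.05, 0.730, 1.86 and 26.7 CPM in 5-FU+ICB tumors. Every 5-FU+ICB tumor lay above every PBS tumor, and 4 of the 5 5-FU tumors did. The single value of 26.7 CPM in 5-FU+ICB tumor 5 set the size of the difference: the log2 fold change of 5-FU+ICB against PBS was 4.14 ± 1.01, and 1.84 without that tumor.

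*Col10a1* (chr10:34389981-34397085, plus strand) differed most against PBS in the downward direction. PBS tumors had 9.98, 22.6, 30.1 and 7.18 CPM, and cisplatin tumors 5.00, 18.6, 12.7 and 5.72 CPM. ICB tumors had 1.09, 0.314, 0.711, 3.69 and 0.794 CPM, 5-FU tumors 1.75, 2.62, 1.43, 3.21 and 1.90 CPM, and 5-FU+ICB tumors 0.410, 3.35, 0.446, 0.464 and 0.200 CPM. Cisplatin+ICB tumors were split, with 11.6 and 4.74 CPM in tumors 1 and 3 and 0.383, 1.11 and 0.341 CPM in tumors 2, 4 and 5. Every ICB, 5-FU and 5-FU+ICB tumor lay below the lowest PBS tumor, while the cisplatin tumors overlapped them. The log2 fold changes against PBS were -3.69 ± 0.76 for ICB, -2.98 ± 0.73 for 5-FU and -4.14 ± 0.77 for 5-FU+ICB, compared with -0.73 ± 0.92 for cisplatin. Without 5-FU+ICB tumor 2 the 5-FU+ICB value was -5.44. For cisplatin+ICB the value was -2.27 ± 0.89, and -3.35 without its tumor 1. Only 18 exon bases of *Col10a1* are shared with another gene, *Nt5dc1* on the opposite strand.

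*Dmp1* (chr5:104202613-104214102, plus strand) lay lower in all 3 groups that received ICB. PBS tumors had 4.26, 5.56, 12.4 and 5.85 CPM, and cisplatin tumors 4.78, 4.88, 13.7 and 4.47 CPM. ICB tumors had 2.18, 2.48, 0.947, 2.62 and 2.27 CPM, 5-FU+ICB tumors 1.60, 4.22, 2.92, 2.41 and 1.70 CPM, and cisplatin+ICB tumors 1.91, 1.82, 3.92, 2.54 and 0.960 CPM. No tumor of these 3 groups reached the lowest PBS tumor. The 5-FU tumors, with 5.92, 3.67, 2.00, 7.21 and 3.16 CPM, lay across both ranges. Log2 fold changes against PBS were -1.68 ± 0.40 for ICB, -1.41 ± 0.40 for 5-FU+ICB and -1.64 ± 0.45 for cisplatin+ICB, compared with -0.65 ± 0.39 for 5-FU and -0.01 ± 0.46 for cisplatin.

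*Phex* (chrX:157162075-157415312, minus strand) was low in ICB and 5-FU+ICB tumors and unlike *Col10a1* was not low after 5-FU alone. PBS tumors had 3.93, 6.34, 6.51 and 4.05 CPM, 5-FU tumors 4.27, 3.31, 6.19, 5.22 and 4.34 CPM, and cisplatin tumors 5.94, 5.30, 6.61 and 6.10 CPM. ICB tumors had 2.39, 0.600, 0.750, 1.61 and 1.02 CPM, and 5-FU+ICB tumors 3.16, 2.73, 2.19, 1.33 and 0.300 CPM. Both groups lay wholly below PBS. Cisplatin+ICB tumors had 8.16, 1.66, 3.71, 2.07 and 2.01 CPM, with tumor 1 the highest of all 28 tumors and the other 4 below every PBS tumor. The log2 fold change against PBS was -2.0 ± 0.48 for ICB and -1.41 ± 0.47 for 5-FU+ICB, and for cisplatin+ICB it was -0.56 ± 0.45, or -1.07 without tumor 1.

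*Fgf23* (chr6:127072902-127081408, plus strand) ran the other way and was higher in most tumors given chemotherapy. PBS tumors had 0.162, 0.780, 0.145 and 0.332 CPM, and ICB tumors 0.307, 0.343, 0.158, 0.0914 and 0.113 CPM, each of these 9 values resting on 3 to 23 counts. The 5-FU tumors had 4.96, 1.55, 5.74, 5.50 and 11.4 CPM and the 5-FU+ICB tumors 4.65, 2.29, 3.61, 4.76 and 39.7 CPM. Cisplatin tumors had 3.19, 0.838, 1.01 and 1.21 CPM and cisplatin+ICB tumors 0.477, 0.670, 3.62, 1.36 and 8.49 CPM. Every 5-FU, 5-FU+ICB and cisplatin tumor lay above every PBS tumor, whereas 3 of 5 cisplatin+ICB tumors did. Log2 fold changes against PBS were 4.00 ± 0.91 for 5-FU, 4.94 ± 0.95 for 5-FU+ICB, 3.04 ± 0.82 for cisplatin+ICB and 2.12 ± 0.83 for cisplatin, compared with -0.79 ± 0.90 for ICB. Against ICB they were 5.72 ± 0.90 for 5-FU+ICB and 3.82 ± 0.79 for cisplatin+ICB, with no overlap between the groups in either case. Without 5-FU+ICB tumor 5 the first of these was 4.19, and the value against PBS 3.41.

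**Figure D1:**
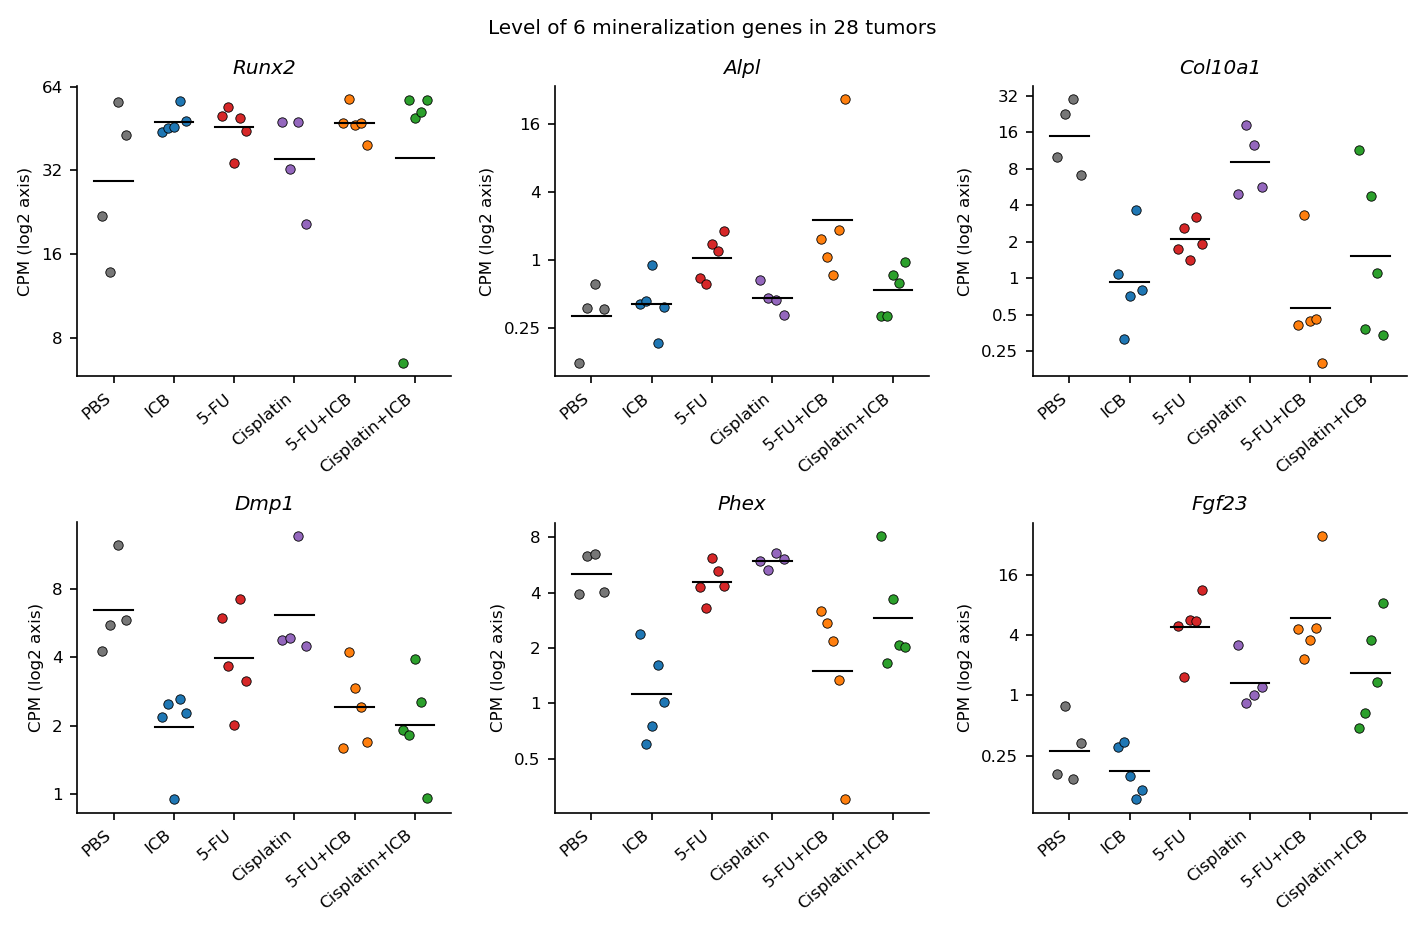
CPM of the 6 measurable members (log2 axis) in each of the 28 tumors, by treatment group. Points are tumors and bars the geometric mean of the group. *Col10a1*, *Dmp1* and *Phex* lie low in ICB and 5-FU+ICB tumors and *Fgf23* high after 5-FU, with 5-FU+ICB tumor 5 at 39.7 CPM of *Fgf23* and 26.7 CPM of *Alpl*.

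Ordered by mean log2 CPM, neighbouring groups were mostly closer than their spread, taken as the larger of both SDs. *Fgf23* went from ICB (-1.99 ± 0.61) to PBS (-1.47 ± 0.92), cisplatin (0.51 ± 0.82), cisplatin+ICB (0.84 ± 1.65), 5-FU (2.31 ± 1.02) and 5-FU+ICB (2.59 ± 1.58), and the only step beyond the spread was that from PBS to cisplatin. *Col10a1* went from 5-FU+ICB (-0.61 ± 1.39) to ICB (0.03 ± 1.20), cisplatin+ICB (0.72 ± 2.13), 5-FU (1.11 ± 0.45), cisplatin (3.19 ± 0.90) and PBS (3.90 ± 0.97), and only the step from 5-FU to cisplatin exceeded it. For *Alpl* the 1 step beyond the spread lay between cisplatin+ICB (-0.71 ± 0.64) and 5-FU (0.16 ± 0.62). No neighbouring groups differed beyond their spread for *Runx2*, *Phex* or *Dmp1*. *Phex* was lowest in ICB (0.26 ± 0.76) and highest in cisplatin (2.59 ± 0.13), and *Dmp1* lowest in ICB (1.04 ± 0.58) and highest in PBS (2.70 ± 0.66).

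Read against the genome as a whole, the counts of members past the call threshold were as follows, a call being an edgeR adjusted p under 0.05 with an absolute log2 fold change above 0.5. Because the choice of members rested on these contrasts, nothing is read from the shares. In ICB against PBS 3 of the 6 members were past it, all lower, where 37.8% of the 17916 tested genes were called. In 5-FU against PBS, 2 of 6 were past it (23% of genes called), *Col10a1* lower and *Fgf23* higher. In 5-FU+ICB against PBS, 5 of 6 were past it (40.7%), *Col10a1*, *Dmp1* and *Phex* lower and *Fgf23* and *Alpl* higher. In cisplatin+ICB against PBS, *Fgf23* and *Dmp1* were past it (6.1% of 17819 genes). In 5-FU+ICB against ICB only *Fgf23* was (0.229%).

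In the other 4 comparisons 0 of the 6 members were past the threshold by edgeR, while DESeq2 placed *Fgf23* past it in cisplatin+ICB against ICB (3.86) and *Dmp1* in cisplatin+ICB against cisplatin (-1.56). Cisplatin against PBS, cisplatin+ICB against ICB and cisplatin+ICB against cisplatin had 0% of genes called, and 5-FU+ICB against 5-FU 0.0112%. DESeq2 called many more genes at the same threshold: 3 in cisplatin against PBS, 56 in cisplatin+ICB against ICB, 766 in cisplatin+ICB against cisplatin, 498 in 5-FU+ICB against 5-FU (2 by edgeR) and 319 in 5-FU+ICB against ICB (41 by edgeR). The groups did not overlap for 1 member in each: *Fgf23* in the first 2 (3.44% and 1.48% of all genes not overlapping), *Dmp1* in cisplatin+ICB against cisplatin (3.35%) and *Phex* in 5-FU+ICB against 5-FU (1.42%). In the comparisons with PBS, 3 members did not overlap for ICB (37.4% of genes), 2 for 5-FU (27%), 5 for 5-FU+ICB (25.5%) and 1 for cisplatin+ICB (8.12%), and against ICB 1 did for 5-FU+ICB (2.33%). The comparisons share PBS or ICB tumors, so they are not independent of each other.

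Single tumors moved these counts most in the cisplatin arm. In cisplatin+ICB against PBS the count ranged from 0 to 5 of 6 members when 1 tumor was left out: *Fgf23* was past the threshold in 3 of 9 such fits and *Dmp1* in 2 of 9. Leaving out cisplatin+ICB tumor 1 gave the highest count, with *Col10a1* (-3.35), *Phex* (-1.07) and *Runx2* (0.80) added, and leaving out any of PBS tumors 1, 3 and 4 or cisplatin+ICB tumors 2, 4 and 5 gave 0. In the fits that lost it, the log2 fold change of *Fgf23* was 2.80, 2.77 and 3.00 without those PBS tumors and 3.30, 3.22 and 2.11 without those cisplatin+ICB tumors, against 3.04 with all tumors. That of *Dmp1* was -1.82, -1.22 and -1.73, and -1.57, -1.69 and -1.44, against -1.64, and it was also lost without PBS tumor 2 (-1.74). In 5-FU+ICB against PBS, *Phex* was no longer past it without PBS tumor 2 (-1.26) or 5-FU+ICB tumor 4 (-1.30). In 5-FU+ICB against ICB, *Fgf23* was no longer past it without ICB tumor 4 (5.53) or tumor 5 (5.57), although its log2 fold change was almost as large. In 5-FU+ICB against 5-FU, *Alpl* (2.79) and *Col10a1* (-2.46) were past it without 5-FU+ICB tumor 2. In cisplatin+ICB against cisplatin, *Col10a1* (-2.62), *Dmp1* (-1.51) and *Phex* (-1.29) were past it without cisplatin+ICB tumor 1, and *Dmp1* (-1.93) without its tumor 3. *Runx2* crossed the threshold upward without PBS tumor 3 in ICB (0.88), 5-FU (0.82) and 5-FU+ICB (0.87) against PBS.

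**Figure D2:**
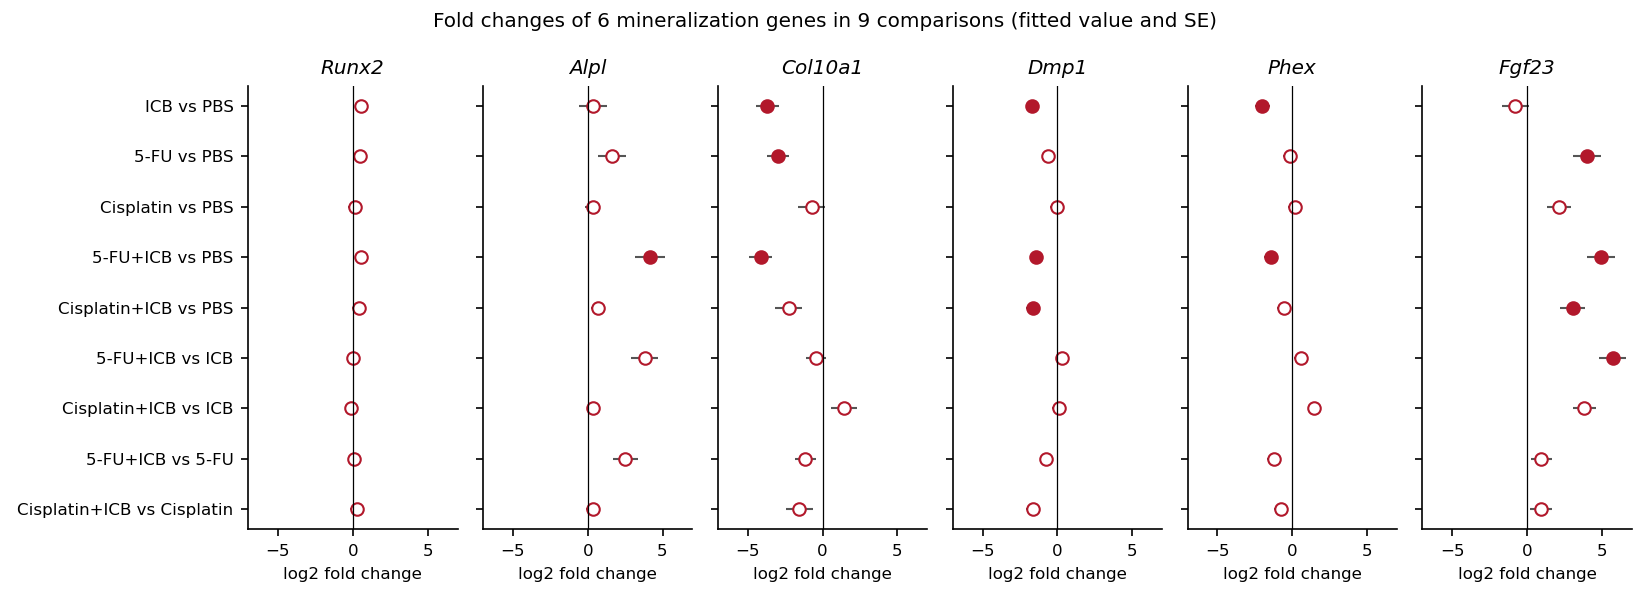
Fitted log2 fold change of 6 members in 9 comparisons (x axis), with its SE as a bar. Filled points are past the call threshold, open points are not. *Col10a1* reaches -4.14 in 5-FU+ICB against PBS and *Fgf23* 5.72 in 5-FU+ICB against ICB, while *Runx2* does not pass 0.57.

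A pair of tumors stood apart from the others and held opposite ends of several members. In 5-FU+ICB tumor 5, *Fgf23* and *Alpl* were the highest and *Phex* and *Col10a1* the lowest of all 28 tumors. Its mitochondrial share of counts was 16.1%, against 1.03% to 6.80% elsewhere. Its *Msln* level was 0.50 CPM, against 34.4 CPM or more elsewhere, and its summed skeletal muscle (5087 CPM), adipocyte (380 CPM) and endothelial (616 CPM) markers were the highest, while its summed cycling markers were the lowest (376 CPM). In cisplatin+ICB tumor 1, *Phex* was the highest (8.16 CPM) and *Runx2* the lowest (6.52 CPM) of all. There *Msln* was 654 CPM, above the 358 CPM of the next tumor, the summed leukocyte (358 CPM) and endothelial (26.1 CPM) markers were the lowest, and the TMM scaling factor was 0.684, the lowest of the 28. The part of these differences in the members' levels was not tested.

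Within groups, the members varied together in a few pairs only. The correlation was computed on log2 CPM after subtracting the group mean, over the 28 tumors and for all 15 pairs, as a description. The points share their libraries, and hence depth and cell makeup. *Fgf23* and *Alpl* varied together most closely (Pearson's r = 0.74, Spearman's rho = 0.70), with a positive r in all 6 groups and r = 0.61 without 5-FU+ICB tumor 5. *Col10a1* and *Phex* followed (r = 0.66, rho = 0.64), positive in 4 of 6 groups, and r was 0.56 without cisplatin+ICB tumor 1. *Col10a1* and *Dmp1* had r = 0.51 and rho = 0.56, positive in all 6 groups and between 0.43 and 0.61 when any 1 tumor was left out. Leaving out the 2 tumors farthest from the median of the first gene gave 0.56, 0.51 and 0.56 for these 3 pairs.

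Some of the negative correlations rested on single tumors. *Alpl* and *Phex* had r = -0.58 and rho = -0.31, and r was -0.12 without 5-FU+ICB tumor 5. *Fgf23* and *Phex* had r = -0.43 and rho = -0.24, and -0.12 without the same tumor. *Col10a1* and *Fgf23* had r = -0.46 and rho = -0.41, which stayed between -0.60 and -0.35 without any 1 tumor and was -0.24 without both tumors that stood apart. The highest r of *Runx2* with another member was 0.29, with *Dmp1*. Its r with *Col10a1* was -0.33, and 0.15 without cisplatin+ICB tumor 1. The remaining pairs lay between -0.33 and 0.29.

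**Figure D3:**
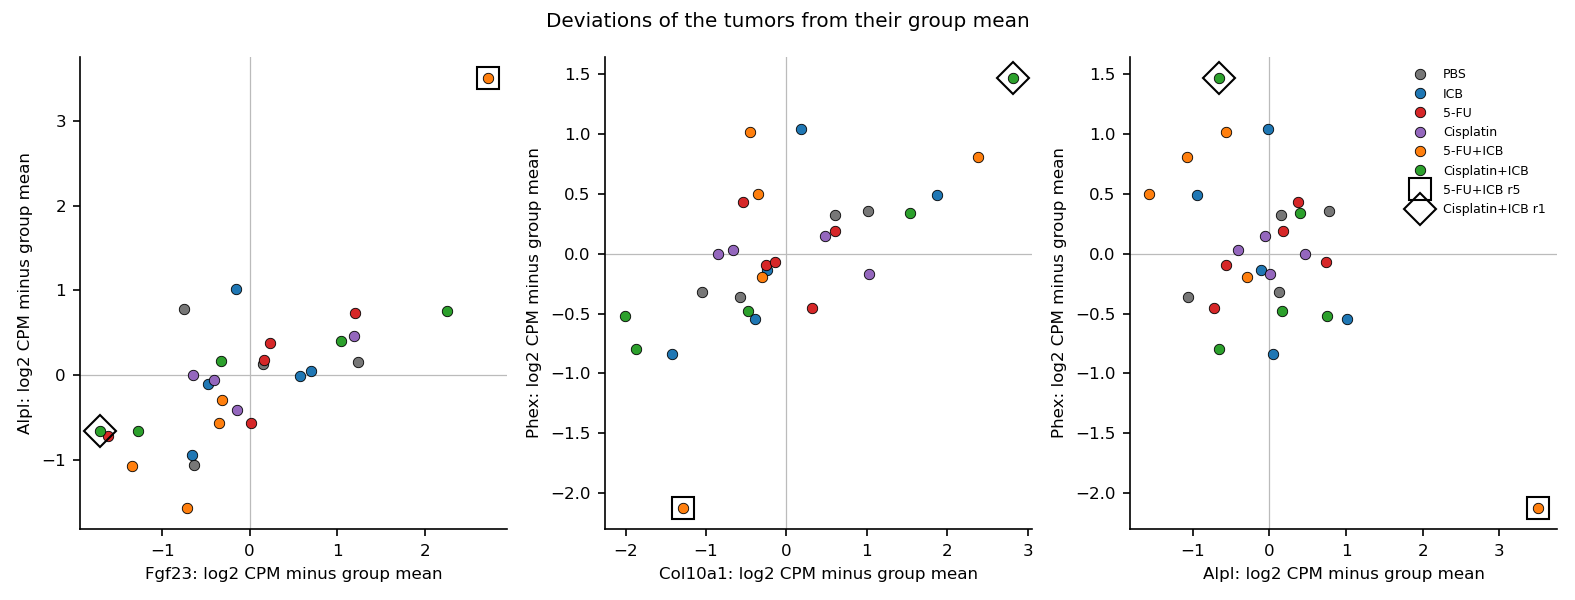
Log2 CPM of each tumor minus the mean of its group, for 3 pairs of members. Points are the 28 tumors colored by group, with a square around 5-FU+ICB tumor 5 and a diamond around cisplatin+ICB tumor 1. *Fgf23* and *Alpl* vary together (r = 0.74), while the negative slope of *Alpl* and *Phex* (r = -0.58) is carried by the squared tumor (-0.12 without it).

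The genes whose within-group pattern was most like each member, by Pearson's r over the 28 tumors among 14419 genes with a mean of at least 1 CPM, differed from member to member. For *Col10a1* they were *Rftn2* (0.90), *Gm44950* (0.89) and *Gm10561* (0.89), for *Fgf23* *Scml4* (0.81), *Lifr* (0.80) and *Asb2* (0.80), and for *Dmp1* *Zscan25* (0.80), *Ccar2* (0.79) and *Epm2aip1* (0.77). For *Phex* they were *Gm10439* (0.88), *Ubtd2* (0.87) and *Gas2* (0.86), and for *Alpl* *Clu* (0.90), *Derl3* (0.88) and *Galnt18* (0.88). The *Alpl* values were 0.66, 0.65 and 0.71 without 5-FU+ICB tumor 5. *Runx2* was unlike the others in following very many genes. *Dicer1*, *Prrc2a* and *Supt6* each had r = 0.99, and 1461 genes had r of at least 0.9, or 516 without cisplatin+ICB tumor 1.

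Whether other genes of mineralization differed between treatments was tested on the 93 genes of the 5 lists. The lists held genes of bone cells and bone matrix (20), of mineral deposition and its inhibitors (14), of cartilage (20), of the FGF23 and phosphate axis (16) and of BMP, Wnt and hedgehog signals (23). Of these, 67 passed the filter on low counts in the matrix with the 5-FU groups and 64 in that with the cisplatin groups. By edgeR's test, 19 rose and 8 fell in ICB against PBS (27 of 67, where 37.8% of all tested genes were called), and 20 rose and 1 fell in 5-FU against PBS (21 of 67, against 23%). After 5-FU+ICB, 26 rose and 9 fell against PBS (35 of 67, against 40.7%), and in cisplatin+ICB against PBS 3 rose (3 of 64, against 6.1%). The counts are descriptions of the lists, and no list was tested against the other genes. The median log2 fold change of all tested genes lay between -0.04 and 0.06 in the 9 comparisons.

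Cisplatin against PBS had 0 calls among the lists in edgeR's test, with 1 gene at an unadjusted p under 0.05 and 0 calls by DESeq2. The comparisons of each combination with its single arms also had 0 calls by edgeR. There were 14 genes at an unadjusted p under 0.05 and 3 calls by DESeq2 for 5-FU+ICB against ICB, 12 and 5 for 5-FU+ICB against 5-FU, 7 and 0 for cisplatin+ICB against ICB, and 12 and 5 for cisplatin+ICB against cisplatin. The interaction of chemotherapy with ICB called 0 of these genes in edgeR, where 0.0893% and 0% of all genes were called, with 11 at an unadjusted p under 0.05 for 5-FU and 1 for cisplatin, and DESeq2 was not run on it.

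Next to Fgf23 in its pathway, the glycosyltransferase *Galnt3*, which protects the intact hormone from cleavage, had the largest called change of its list in 5-FU+ICB against PBS. PBS tumors had 0.487, 0.678, 0.904 and 0.764 CPM, ICB tumors 5.96, 6.31, 7.74, 4.26 and 6.88 CPM, and 5-FU+ICB tumors 10.6, 1.40, 7.05, 6.81 and 13.7 CPM, with no overlap between PBS and either. *Galnt3* rose by 3.16 ± 0.58 on the log2 scale in ICB (edgeR adjusted p = 0.000878) and by 3.51 ± 0.59 in 5-FU+ICB (edgeR adjusted p = 0.00071). In 5-FU tumors it was 1.15, 2.30, 4.36, 0.642 and 2.90 CPM and rose by 1.69 ± 0.56 (edgeR adjusted p = 0.0341), a call that was lost without PBS tumor 1 (1.57), 2 (1.70) or 4 (1.72) or 5-FU tumor 3 (1.32) or 5 (1.58). Its rise in cisplatin+ICB (2.57 ± 0.49, edgeR adjusted p = 0.0122) was not called without PBS tumor 1 (2.42), 3 (2.70) or 4 (2.60). *Vdr*, the vitamin D receptor, rose in ICB (2.49 ± 0.44, edgeR adjusted p = 0.000698) and 5-FU+ICB (2.28 ± 0.44, edgeR adjusted p = 0.00126). ICB tumor 2 had 51.2 CPM of *Vdr*, against 12.2 to 19.2 CPM in the other ICB tumors. Its summed skin keratinocyte markers reached 447 CPM, where the ICB median was 1.26 CPM, and their part in *Vdr* was not tested. In ICB *Vdr* stayed called without any 1 tumor (lowest 1.97). Of the 10 tested genes of this axis, 3 rose in ICB, 3 rose in 5-FU, and 3 rose and 2 fell in 5-FU+ICB against PBS, where 37.8%, 23% and 40.7% of all genes were called (medians 0.27, 0.77 and 0.31).

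Of the 12 tested genes of mineral deposition, which act beside *Alpl*, 4 rose and 4 fell in ICB, 3 rose and 1 fell in 5-FU, and 5 rose and 3 fell in 5-FU+ICB, where 37.8%, 23% and 40.7% of all genes were called (medians 0.08, 0.24 and 0.44). *Mgp*, the matrix Gla protein that inhibits calcification, was 320, 598, 366 and 241 CPM in PBS tumors and between 23.2 and 152 CPM in ICB, 68.8 and 132 CPM in 5-FU, and 28.0 and 99.4 CPM in 5-FU+ICB tumors, without overlap. It fell by 2.18 ± 0.44 on the log2 scale in ICB (edgeR adjusted p = 0.00146), by 1.99 ± 0.44 in 5-FU (edgeR adjusted p = 0.00726) and by 2.63 ± 0.45 in 5-FU+ICB (edgeR adjusted p = 0.000722). *Phospho1* and *Smpd3*, enzymes of the vesicles in which mineral starts, rose in all 3. In 5-FU+ICB their log2 fold changes were 2.51 ± 0.73 (edgeR adjusted p = 0.0111) and 2.47 ± 0.65 (edgeR adjusted p = 0.00665), from 0.548 ± 0.338 and 0.472 ± 0.230 CPM in PBS tumors (SD, n = 4).

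Of the 12 tested bone cell and matrix genes, 1 rose and 2 fell in ICB, 3 rose in 5-FU, and 3 rose and 2 fell in 5-FU+ICB, against the same shares of all genes (medians -0.33, 0.17 and 0.14). *Sparc* (osteonectin) fell in ICB by 1.01 ± 0.18 on the log2 scale (edgeR adjusted p = 0.000742). *Spp1* (osteopontin), which macrophages also make, fell in 5-FU+ICB by 1.92 ± 0.48 (edgeR adjusted p = 0.00464). In the cartilage list, where 11 were tested, 4 rose in ICB, 4 in 5-FU and 6 in 5-FU+ICB and none fell, where 37.8%, 23% and 40.7% of all genes were called in either direction (medians 1.07, 1.14 and 1.99). They were *Col11a2*, *Comp*, *Chad* and *Mmp13* in ICB, *Sox5*, *Col11a2*, *Chad* and *Prg4* in 5-FU, and *Sox5*, *Sox6*, *Comp*, *Chad*, *Prg4* and *Mmp13* in 5-FU+ICB. *Comp*, *Chad* and *Col11a2* encode proteins of the cartilage matrix, and *Sox5* and *Sox6* are transcription factors of chondrocytes. The levels of these 5 genes were low. Averaged over the tumors, *Chad* had 0.197 CPM (at most 13 counts in any tumor), *Comp* 0.723, *Sox5* 0.856, *Col11a2* 1.13 and *Sox6* 1.14 CPM. *Sox6* in 5-FU+ICB (3.70 ± 1.31, edgeR adjusted p = 0.0295) was not called without PBS tumor 1 (3.61), 2 (3.37) or 3 (3.83) or without 5-FU+ICB tumor 5 (2.78). *Prg4* (lubricin) rose in 5-FU (2.70 ± 0.60, edgeR adjusted p = 0.00731). *Mmp13*, a collagenase of fibroblasts as well, rose in 5-FU+ICB (2.66 ± 0.82, edgeR adjusted p = 0.0152), but was not called without 5-FU+ICB tumor 5 (1.66). In ICB *Mmp13* rose by 2.64 ± 0.82 (edgeR adjusted p = 0.0168) and was not called without ICB tumor 2 (1.33). Of 22 tested BMP, Wnt and hedgehog genes, 7 rose and 2 fell in ICB, 7 rose in 5-FU, and 9 rose and 2 fell in 5-FU+ICB, with the same shares of all genes called (medians 0.24, 0.58 and 0.54). The Wnt co-receptor *Lrp5* rose in ICB (2.09 ± 0.40, edgeR adjusted p = 0.00107) and 5-FU+ICB (2.06 ± 0.40, edgeR adjusted p = 0.0013).

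**Figure D4:**
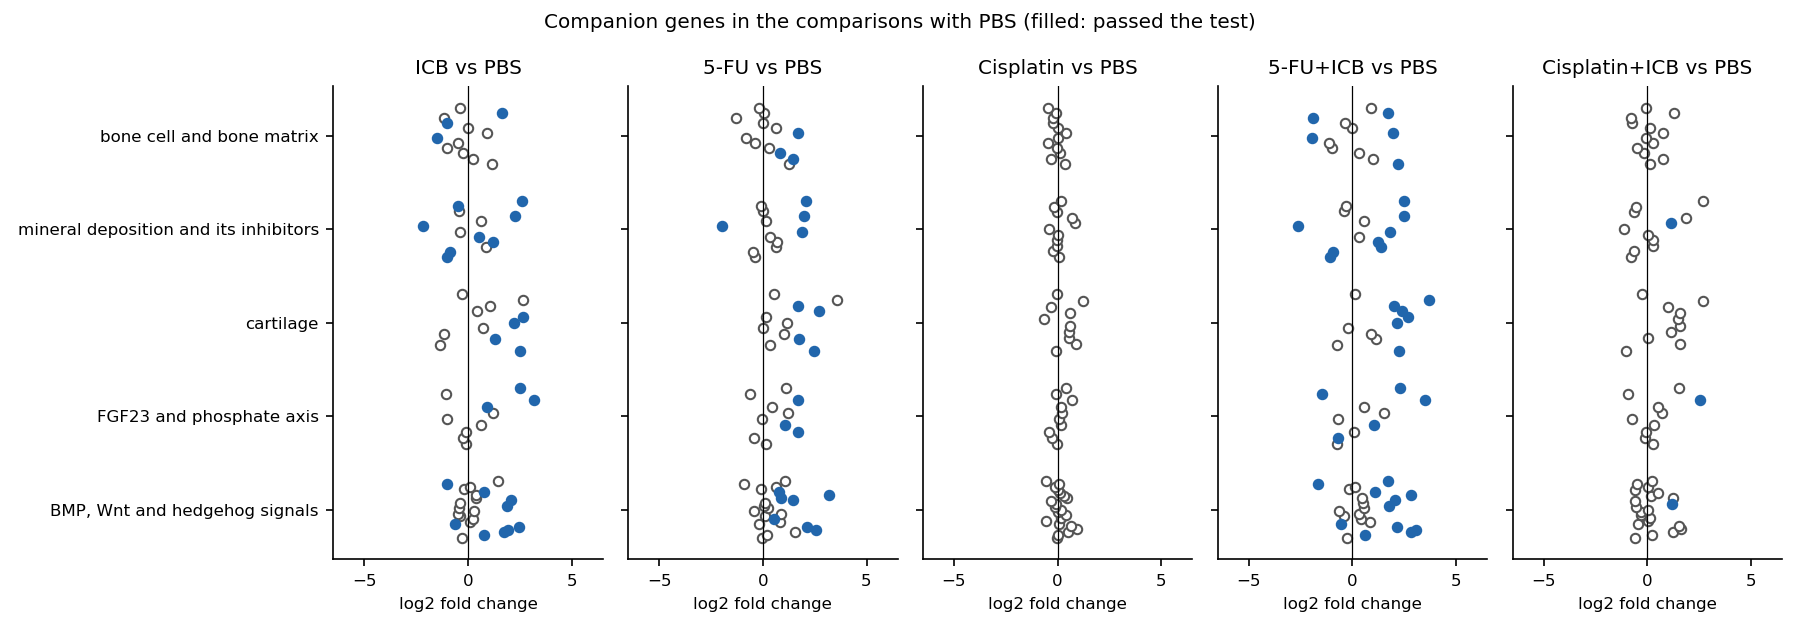
Log2 fold change (x axis) of each tested gene of the 5 lists (y axis) in the 5 comparisons with PBS. Filled points passed edgeR's test and open points did not, with 27 filled in ICB, 21 in 5-FU, 35 in 5-FU+ICB, 3 in cisplatin+ICB and 0 in cisplatin.

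**Figure D5:**
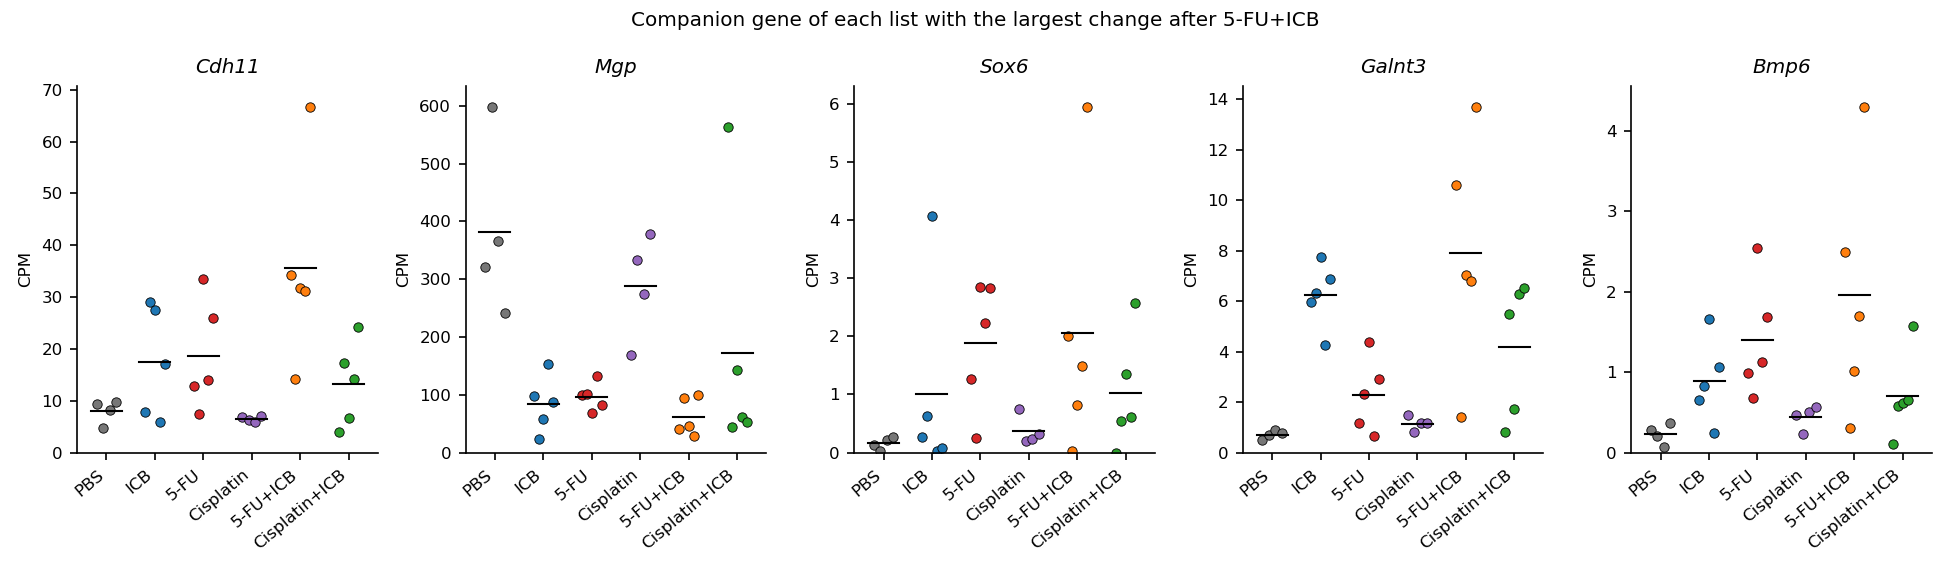
CPM (linear axis) in each of the 28 tumors of the gene with the largest called change of each list in 5-FU+ICB against PBS. Points are tumors and bars group means, and *Mgp* lies low and *Galnt3* high in ICB and 5-FU+ICB tumors, while the *Sox6* mean of 5-FU+ICB tumors includes 1 tumor at 5.95 CPM.

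These counts moved with single tumors in 5-FU and cisplatin+ICB. In 5-FU against PBS 21 genes were called, and 5 without PBS tumor 1, 4 without PBS tumor 2, 12 without 5-FU tumor 3 and 9 without 5-FU tumor 5. *Mgp* and *Prg4* were called in all 9 such fits, while *Phospho1* and *Smpd3* were lost without PBS tumor 1 (1.76 and 2.12) and PBS tumor 2 (1.84 and 1.84) among others. In cisplatin+ICB against PBS 3 genes were called, *Nt5e*, *Galnt3* and *Id2*, and 25 without cisplatin+ICB tumor 1, of which 19 rose and 6 fell. Without PBS tumor 1, 3 or 4 there were 0, without cisplatin+ICB tumor 2 or 4 there was 1, and without its tumor 3 there were 5. In 5-FU+ICB against PBS the count stayed between 30 and 37 and in ICB against PBS between 18 and 32.

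Markers of other cells differed between groups in some lists and comparisons, and their part in the results was not tested. None of them was called in cisplatin against PBS. The counts of called markers stand beside 37.8% of all genes called in ICB, 23% in 5-FU, 40.7% in 5-FU+ICB and 6.1% in cisplatin+ICB against PBS. No marker list was tested against the other genes. Of 8 tested leukocyte markers, 8 rose in ICB, 5 in 5-FU, 6 in 5-FU+ICB and 6 in cisplatin+ICB against PBS. Their summed level ranged from 466 to 620 CPM in PBS, 1318 to 3156 CPM in ICB, 648 to 2042 CPM in 5-FU, 412 to 821 CPM in cisplatin, 536 to 2472 CPM in 5-FU+ICB and 358 to 1657 CPM in cisplatin+ICB tumors. Of 6 fibroblast markers, 1 rose in ICB, 3 in 5-FU and 3 in 5-FU+ICB, and the sum ranged from 430 to 503 CPM in PBS and from 572 to 1644 CPM in 5-FU tumors. The summed level of 6 skeletal muscle markers was 921 to 1505 CPM in 4 of the 5 5-FU tumors and 8.5 CPM in 5-FU tumor 2, against 103 to 179 CPM in PBS tumors. The tumors with the lowest muscle sum in the 5-FU and 5-FU+ICB groups, tumor 2 in both (8.5 and 2.4 CPM), had the lowest *Fgf23* of their groups, and cisplatin+ICB tumors 5 and 3, with the highest sums of theirs (934 and 803 CPM), had the highest. In ICB tumor 3, with 3494 CPM of muscle markers, *Fgf23* was 0.158 CPM. These tumors were picked after their values were seen, and PBS and cisplatin tumors are not among them. The relation of *Fgf23* to muscle markers over all tumors was not tested. Summed adipocyte markers were 34.4 to 60.1 CPM in PBS and 24.8 to 263 CPM in 5-FU tumors, lowest in tumor 2. In 5-FU against PBS edgeR called 0 of the 6 muscle markers, with 0 at an unadjusted p under 0.05 and 0 by DESeq2, and 0 of 4 adipocyte markers, with 2 and 0, while in 5-FU+ICB against PBS it called 0 muscle markers, with 1 and 1, and 1 adipocyte marker (*Fabp4*). Of 4 endothelial markers, 1 rose in ICB, 2 in 5-FU and 4 in 5-FU+ICB, and of 4 cycling markers *Cdk1* and *Ccnb1* fell in all 3. Of 10 markers of osteoclasts, the cells that resorb bone, 2 rose in ICB, 1 rose and 3 fell in 5-FU+ICB and 7 fell in 5-FU, where the sum ranged from 495 to 729 CPM against 1928 to 2867 CPM in PBS tumors. Of 5 tested mesothelial markers, *Wt1* rose in ICB, 5-FU, 5-FU+ICB and cisplatin+ICB against PBS and *Krt19* and *Pdpn* rose in 5-FU+ICB. *Krt19* was 48.9 CPM in 5-FU+ICB tumor 5 and at most 1.86 CPM in any other tumor. *Msln*, the most abundant mesothelial marker in PBS tumors, fell in 5-FU+ICB (-2.28 ± 0.77, edgeR adjusted p = 0.0238), and was 109 ± 66.8 CPM in ICB and 270 ± 42.9 CPM in cisplatin tumors (SD, n = 5 and 4).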

How the data were processed

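Per the labels and the study's methods, RNA of whole tumors was sequenced as 100-base single-end reads, and the authors demultiplexed them with bcl2fastq 2.20.0.422 and quantified transcripts with kallisto 0.46.0 (GRCm38), summed to genes with tximport. The annotation release and the strandedness are not given in the sources used here. The deposited values are estimated counts per gene in 2 matrices, which share 9 PBS and ICB tumors with identical values. Of the values 23.7% were not whole and all were rounded, and 26 rows whose symbols had turned into dates match no gene named here.

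Each matrix was fitted with its 4 groups in edgeR 4.0.16 (filterByExpr, TMM, quasi-likelihood F test) in R 4.3.3, with Benjamini-Hochberg adjustment over all 17916 or 17819 tested genes. ICB against PBS was read from the matrix with the 5-FU groups. Levels come from TMM over all 28 tumors and log2 CPM uses a prior count of 2. DESeq2 1.42.0 was an alternative, beside other scalings, filters, fits and leaving out each tumor. In simulated counts for 5-FU against PBS over 17581 genes, 81.5% of 200 genes changed by a log2 of 2 were called. Of the simulated calls, 4.12% were unchanged genes. Only those 200 genes were changed, evenly up and down, so these rates need not hold in the tumors, where far more genes were called. Separate mice were taken as replicates, and the members' annotation is GENCODE M21.

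The members, lists and markers were chosen with earlier results of these data known. Of each list, up to 4 called genes with a mean of at least 1 CPM were eligible to be named, by size of change, and for likeness the 3 genes with the highest r. Genes named outside that rule (*Bglap*, *Bglap2*, *Bglap3*, *Ifitm5*, *Sost*, *Mepe*, *Dspp*, *Acan*, *Col2a1*, *Col9a3*, *Sox5*, *Comp*, *Chad*) were chosen after their values were seen.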

Additional observations from a re-analysis of the deposited data

Results flagged for a closer look

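In 36 checks of a member within a group, 6 members' tumors lay far from the rest of their group, the gap to the nearest tumor on the log2 CPM scale being a larger share of the group's range than Dixon's critical value for groups of 4 or 5. Such a check marks about 1 in 20 groups by chance, but the members were chosen on these levels and the checks share tumors, so the number is a description only. Levels are given in CPM and the shares are of log2 CPM. *Fgf23* (39.7 CPM, share 0.747) and *Alpl* (26.7 CPM, share 0.749) were high in 5-FU+ICB tumor 5, and *Col10a1* was high in 5-FU+ICB tumor 2 (3.35 CPM, share 0.731). *Runx2* was low in cisplatin+ICB tumor 1 (6.52 CPM, share 0.933). *Dmp1* was low in ICB tumor 3 (0.947 CPM, share 0.817) and high in cisplatin tumor 3 (13.7 CPM, share 0.923).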

How the results depend on the processing

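No called fold change of the members, or of the list genes eligible to be named, reversed its sign in the alternatives run. Other called list genes and the markers were not followed there one by one. Of 349 member fold changes under other settings, 17 crossed the threshold, 11 of them downward. *Alpl* in 5-FU+ICB against PBS was not past it in DESeq2 (4.21, against 4.14). With no filter and with only the 2 groups fitted, *Fgf23* (3.16 and 3.09) and *Dmp1* (-1.58 and -1.53) in cisplatin+ICB against PBS and *Phex* (-1.31 and -1.35) in 5-FU+ICB against PBS were not past it, nor was *Fgf23* in 5-FU+ICB against ICB with only the 2 groups (5.72) or in cisplatin+ICB against PBS with all 6 groups joined (3.02). These fold changes were about as large as before. The 6 gains were *Runx2* in ICB (0.64) and 5-FU+ICB (0.63) against PBS with at least 10 counts in every tumor, *Alpl* in 5-FU against PBS with only the 2 groups (1.68) and in 5-FU+ICB against ICB with all 6 groups joined (3.78), and, by DESeq2, *Fgf23* in cisplatin+ICB against ICB (3.86) and *Dmp1* in cisplatin+ICB against cisplatin (-1.56). The count of list genes called was 5 for 5-FU against PBS with all 6 groups joined, 0 for cisplatin+ICB against PBS with only the 2 groups, and by DESeq2 it was 9 for cisplatin+ICB against PBS, 3 for 5-FU+ICB against ICB and 5 for both combinations against their chemotherapy alone. The cause was not tested. Leaving out 1 tumor gave 4 to 21 for 5-FU against PBS, 0 to 25 for cisplatin+ICB against PBS, 0 to 1 for 5-FU+ICB against ICB, and 0 to 10 for each combination against its chemotherapy. For 5-FU+ICB against 5-FU, 3 were called without 5-FU tumor 3 and 10 without 5-FU+ICB tumor 2, and in cisplatin+ICB against cisplatin 10 without cisplatin+ICB tumor 1 and 2 without its tumor 3.

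Replicate numbers were not used to pair the tumors, since in no comparison did every same-numbered pair correlate above 0.1. Single pairs varied widely, from -0.29 to 0.66 in 5-FU+ICB against 5-FU. With so few pairs this rule cannot exclude a pairing or a shared batch. With the replicate block, 12 list genes were called in 5-FU against PBS and 0 in cisplatin+ICB against PBS, and *Fgf23* (2.44) and *Dmp1* (-1.53) in the latter were not past the threshold.

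Member values that moved beyond the spread without 1 tumor were *Fgf23* in ICB against PBS (-0.01 without PBS tumor 2), *Col10a1* without 5-FU+ICB tumor 2 (-5.44 against PBS, -1.75 against ICB, -2.46 against 5-FU), and, without 5-FU+ICB tumor 5, *Fgf23* (3.41, 4.19 and -0.59) and *Alpl* (1.84, 1.49 and 0.21) against the same groups. Counts near the floor limit *Fgf23* and *Alpl* in PBS and ICB tumors.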
